A study of Mus musculus with 24 samples.

Results

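The foreign body response to polyethylene (PE) in the injured muscle of MRL/MpJ (MRL) mice was read from 6 of the 24 bulk RNA sequencing libraries of the series, 3 PE-treated and 3 saline-treated, across the 14159 rows that carry a gene symbol. The libraries were taken by their group labels, and no measured value entered the choice. MRL is an inbred strain known for closing ear wounds with little scar. The mice were females of 6 to 8 weeks at surgery, and a piece of the mid-belly of the quadriceps was cut out of each (volumetric muscle loss, VML). The gap was filled with saline as the control injury or with powder of ultrahigh molecular weight PE, a plastic that the tissue cannot degrade, and quadriceps muscle was collected 21 days after the injury. C57BL/6 (B6) mice with the same injuries, again 3 libraries per treatment, served as the comparison. The uninjured and decellularized extracellular matrix (ECM) groups of both strains entered the estimate of the spread. No group carries a transgene or a deleted gene. The study's methods describe the sequenced samples as independent whole muscles, while the labels number the replicates without naming animals, and p-values measure the spread between these libraries.

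When a material that cannot be degraded is placed in tissue, proteins coat its surface, macrophages attach to it, some of them fuse into foreign body giant cells, and fibroblasts lay down a collagen capsule around it. Macrophages that take up lipid switch on a lipid-associated program of lysosomal enzymes and lipid-binding proteins. Interferons signal through STAT transcription factors to switch on antiviral and antigen-presentation genes, and sterol regulatory element binding proteins (SREBPs) switch on the enzymes that make cholesterol and fatty acids. Injured skeletal muscle regrows from satellite cells that carry Pax7, and it can also be replaced in part by fat and scar.

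Expression is given in CPM, the count of a gene scaled to the effective size of its library, with the prior count removed. Effective size is library size adjusted by the trimmed mean of M-values (TMM), so library totals were not equal. Among the 6 libraries they ran from 733112 CPM in PE replicate 2 to 1150769 CPM in saline replicate 3. A fold change is the difference of mean log2 CPM, PE minus saline, with its standard error (SE). PE-treated MRL replicate 2 stood apart from replicates 1 and 3. Its Pearson correlation with them across genes was 0.812 and 0.827, against 0.966 between replicates 1 and 3 and 0.947 to 0.972 among the saline-treated libraries. The mean correlation of this library with the B6 PE-treated libraries was 0.913. It lay on the MRL side at 74 of 76 genes that separated all other MRL libraries from all B6 libraries, so its strain went with its label. By more than 2 on the log2 scale, 1083 genes were above and 348 were below both other PE-treated MRL libraries in it, whereas replicate 1 stood that far apart at 170 genes and replicate 3 at 93. Skeletal muscle markers were abundant in all 6 libraries, with Acta1, the actin of skeletal muscle, between 5300.1 CPM in PE replicate 2 and 27987 CPM. Results that rest on PE replicate 2 are therefore given with and without it. In whole muscle, fewer cells of a type and less RNA per cell cannot be told apart.

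No gene was called between PE-treated and saline-treated MRL mice at an adjusted p under 0.05 (0 of 14159, 0%). The smallest adjusted p was 0.085, which 40 genes reached, and 145 genes were under 0.10. At an unadjusted p under 0.05, 1817 genes (12.8%) were higher and 1481 (10.5%) were lower with PE, and the 3 PE-treated libraries lay entirely above the saline-treated ones at 1523 genes (10.8%) and entirely below them at 1342 (9.48%). These percentages are the background against which counts of list members are set below. Of the genes at an unadjusted p under 0.05, 55.1% were higher with PE, 80.9% when the libraries were scaled to equal totals and 41.2% after quantile normalization. The median fold change of all genes was 0.05, and it was 0.31 and -0.07 on those scales. Without PE replicate 2, 1313 genes (9.27%) were higher and 627 (4.43%) lower at an unadjusted p under 0.05, and 0 were called. Without saline replicate 1, 490 genes (3.46%) were called higher and 285 (2.01%) lower.

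**Figure D1:**
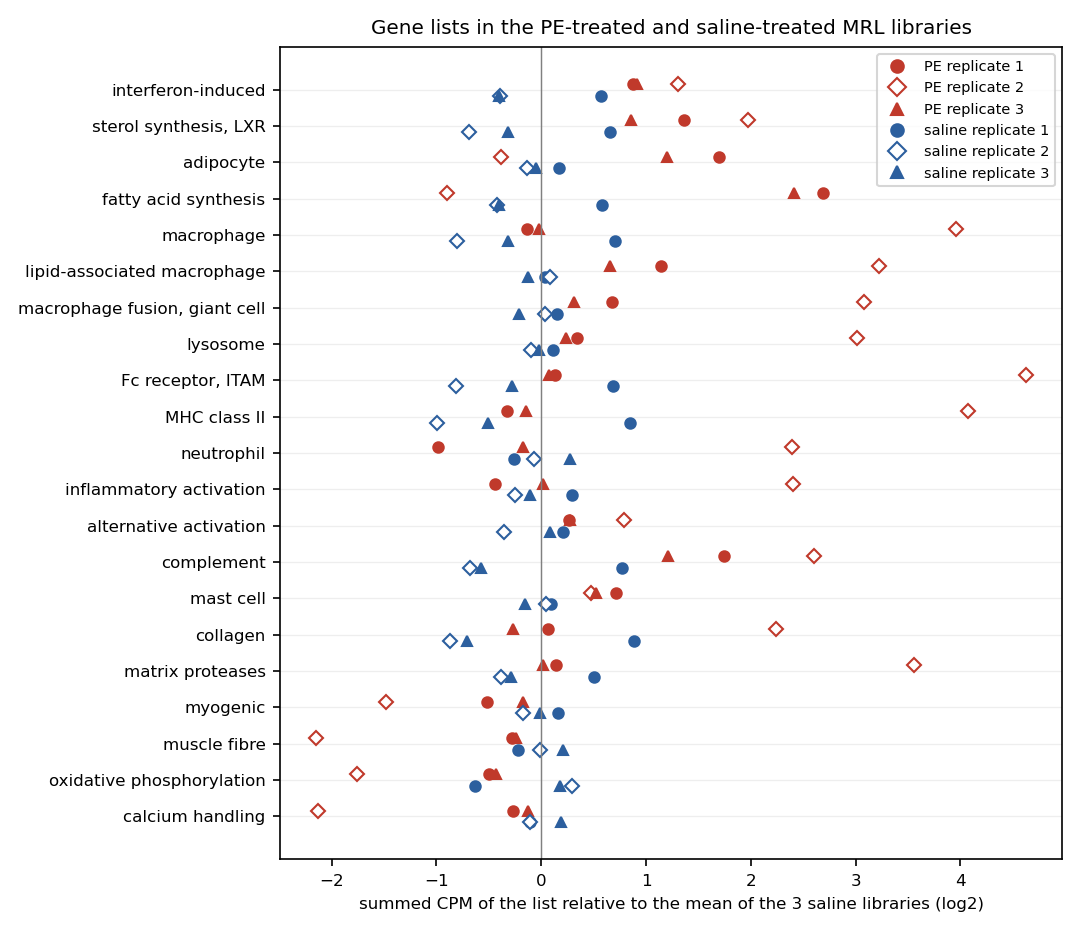
Summed CPM of 21 gene lists in each of the 6 MRL libraries, as the log2 ratio to the mean of the 3 saline-treated libraries. Circles, open diamonds and triangles are replicates 1, 2 and 3, red for PE and blue for saline. The 3 PE-treated libraries lay to the right of the saline-treated ones for the interferon-induced, sterol, complement and mast cell lists. The same held for the lipid-associated macrophage, fusion and lysosome lists, and narrowly for the alternative activation list. Its ratios were 0.26 and 0.27 in PE replicates 1 and 3 and 0.21 in saline replicate 1. PE replicate 2 alone lay far to the right for the macrophage, lysosome and Fc receptor lists. PE replicates 1 and 3 alone lay to the right for the adipocyte and fatty acid synthesis lists.

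Spon1, which encodes the secreted matrix adhesion protein spondin 1 (chromosome 7, 113364999 to 113642610, GRCm39), was first by p among the higher genes. It stood at 144, 122 and 106 CPM in PE replicates 1, 2 and 3 and at 41, 7.76 and 12.9 CPM in saline replicates 1, 2 and 3. The groups did not overlap and PE replicate 2 lay between the other two, with a fold change of 2.93 (SE 0.52, limma adjusted p = 0.085, n = 3 per group) and of 2.94 without PE replicate 2. In B6 mice the same gene stood at 25.4, 25 and 16.1 CPM with PE and 21.5, 18.5 and 11.1 CPM with saline, a fold change of 0.40.

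The other higher genes at the top of the ranking, all with an adjusted p of 0.085, included 2 enzymes of sterol synthesis, Cyp51 and Msmo1, described below, and Dhdds, a subunit of the enzyme that builds the lipid carrier dolichol. Dhdds stood at 26.3, 32.9 and 19.8 CPM with PE and 15.7, 14.5 and 14.6 CPM with saline, a fold change of 0.79 (SE 0.15). Lrrc59, a membrane protein of the endoplasmic reticulum, stood at 128, 154 and 97.3 CPM against 74.5, 61.3 and 49.7 CPM, and Faf2, which takes part in protein degradation at the same membrane, at 28.9, 38.8 and 30.2 CPM against 20, 17.7 and 16.4 CPM. The 2 groups did not overlap at any of these genes. Unc119, a chaperone of lipid-modified proteins, had a fold change of 1.92 (SE 0.34), Tmem184b 2.19 (SE 0.44), Fam78b 1.89 (SE 0.38) and Ppp1r3e, a glycogen-targeting subunit of protein phosphatase 1, 1.82 (SE 0.36), the last at 0.221 to 2.24 CPM in all 6 libraries.

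Among the lower genes at the top of the ranking was Pax7, the transcription factor that marks satellite cells, the stem cells of muscle (chromosome 4, 139464373 to 139560839, GRCm39). It stood at 2.49, 0.916 and 1.49 CPM with PE and 6.40, 5.04 and 4 CPM with saline, a fold change of -1.69 (SE 0.34, adjusted p = 0.085) and of -1.36 without PE replicate 2. The lowest saline-treated library was above the highest PE-treated one. Itgb6, the beta subunit of an integrin that activates latent TGF-beta, stood at 12.9, 6.87 and 19.2 CPM against 41.9, 51.9 and 47.5 CPM (fold change -1.97, SE 0.42). Hdac9, a histone deacetylase that restrains MEF2 in muscle, stood at 1.91, 1.86 and 2.99 CPM against 6.54, 11.3 and 7.46 CPM (fold change -1.86, SE 0.41). At these genes too the groups did not overlap. Igdcc4 (-1.75), Dusp14 (-1.65), Extl1 (-1.37), Cep85 (-1.28), Tmem47 (-1.01), Gimap6 (-0.99) and Znrf1 (-0.68) completed the 10, each with an adjusted p of 0.085. For Znrf1, 32.7% of the transcript sequence is shared with other genes, so its value is uncertain.

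Upstream sequences are shown for 3 interferon-induced genes and 1 sterol enzyme, because these 2 groups stood higher in all 3 PE-treated libraries. Each is the 160 bases before the transcription start from the RefSeq table of GRCm38.p6, written 5′ to 3′ on the strand of the gene. For the first 3, capitals mark matches to TTTCNNTTTC, the letters at the core of the element bound by interferon-activated STAT and IRF complexes, on either strand. For Hmgcs1, capitals mark a match to TCACNCCAC, letters of the sterol regulatory element that SREBPs bind.
Bst2 (chr8:71537473-71537632, minus strand): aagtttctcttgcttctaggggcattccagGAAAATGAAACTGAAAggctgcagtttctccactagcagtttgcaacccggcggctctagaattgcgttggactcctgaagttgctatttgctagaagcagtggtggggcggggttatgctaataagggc
Gbp7 (chr3:142530176-142530335, plus strand): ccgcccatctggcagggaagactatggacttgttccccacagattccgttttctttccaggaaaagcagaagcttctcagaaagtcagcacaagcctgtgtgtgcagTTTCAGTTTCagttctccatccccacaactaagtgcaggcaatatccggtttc
Ifit3 (chr19:34583369-34583528, plus strand): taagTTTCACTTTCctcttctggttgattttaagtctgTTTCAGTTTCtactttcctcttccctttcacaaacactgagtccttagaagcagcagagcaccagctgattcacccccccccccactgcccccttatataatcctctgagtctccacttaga
Hmgcs1 (chr13:119690191-119690350, plus strand): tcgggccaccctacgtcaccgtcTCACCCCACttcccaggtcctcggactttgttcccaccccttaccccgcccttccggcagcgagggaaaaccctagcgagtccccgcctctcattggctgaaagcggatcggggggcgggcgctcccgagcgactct
Over the 250 bases before the start, TTTCNNTTTC was found on either strand in 14 of the 25 interferon-induced list members with a promoter in the table (56%), against 357 of all 10964 matched genes (3.26%). A gene with several or overlapping matches was counted as 1. TCACNCCAC was found in 1 of 17 members of the sterol list (5.88%), Hmgcs1, against 135 of all genes (1.23%). A match describes the letters only.

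Interferon-induced genes stood higher in all 3 PE-treated libraries. Of the 35 list members, 26 were higher and 0 lower at an unadjusted p under 0.05, and at 25 the PE-treated libraries lay above every saline-treated one. The median fold change was 1.39, against 0.05 over all genes, and it was 1.64 with equal totals and 1.19 after quantile normalization. The summed CPM of the list was 431, 583 and 444 with PE and 349.7, 179 and 177 with saline, so that saline replicate 1 came nearest to the PE-treated libraries. Without PE replicate 2 the median was 1.14, with 27 members higher at an unadjusted p under 0.05. Without saline replicate 1, 19 members were called higher. In uninjured MRL muscle the sum was 178, 306 and 149.9 CPM.

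Cxcl9, a chemokine that interferon-gamma induces and that draws T cells (chromosome 5, 92469206 to 92475945, GRCm39), had the largest fold change among the members named here. It stood at 5.10, 2.93 and 3.23 CPM with PE and 0.801, 0.249 and 0.193 CPM with saline, a fold change of 3.12 (SE 0.66, adjusted p = 0.085) and of 3.27 without PE replicate 2. The groups did not overlap. Zbp1, a sensor of Z-form nucleic acids, stood at 5.04, 5.78 and 2.59 CPM against 1.47, 0.597 and 1.31 CPM (fold change 1.93, SE 0.42, adjusted p = 0.085). Oasl2, of the oligoadenylate synthetase family, stood at 11.9, 22.9 and 13.8 CPM against 6.29, 2.29 and 5.64 CPM (fold change 1.82, SE 0.41, adjusted p = 0.090). In both, every PE-treated library was above every saline-treated one.

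Bst2, or tetherin, which holds budding viruses at the cell surface and whose upstream sequence is shown above, stood at 16.5, 43.5 and 15.4 CPM with PE and 11.4, 5.72 and 5.59 CPM with saline (fold change 1.63, SE 0.38, adjusted p = 0.097). Gbp7, a guanylate-binding protein of cell-autonomous defence, stood at 18, 11 and 16.6 CPM against 10.7, 5.13 and 6.69 CPM (fold change 1.05, SE 0.26, adjusted p = 0.097), and PE replicate 2 was here the lowest PE-treated library. Gbp7 was called with an adjusted p of 0.033 when PE replicate 2 and saline replicate 1 were both left out, a choice made after seeing the data that gave 12 called genes (0.0848%), Spon1, Adamts2 and Cep85 among them. Ifit3, an RNA-binding antiviral effector, stood at 4.92, 6.82 and 6.13 CPM against 2.35, 0.478 and 1.72 CPM (fold change 2.15, SE 0.54, adjusted p = 0.097), and 39.4% of its transcript sequence is shared with other genes, its copy Ifit3b among them. Ifit1 (1.54, SE 0.45), Isg15 (1.39, SE 0.44) and Ifit2 (0.92, SE 0.39) were the lower part of the named range. Of these, Isg15, a ubiquitin-like modifier, stood at 1.28, 3.29 and 2.87 CPM against 1.18, 0.792 and 0.598 CPM. Siglec1, a lectin of macrophages that interferon induces, stood at 24, 39.4 and 14.7 CPM against 14.4, 1.92 and 4.25 CPM (fold change 2.27, SE 0.70, adjusted p = 0.115). Myd88, the adaptor of Toll-like and interleukin-1 receptors, stood at 13.2, 26.4 and 17.9 CPM against 10.1, 6.34 and 4.92 CPM (fold change 1.43, SE 0.33, adjusted p = 0.090).

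**Figure D2:**
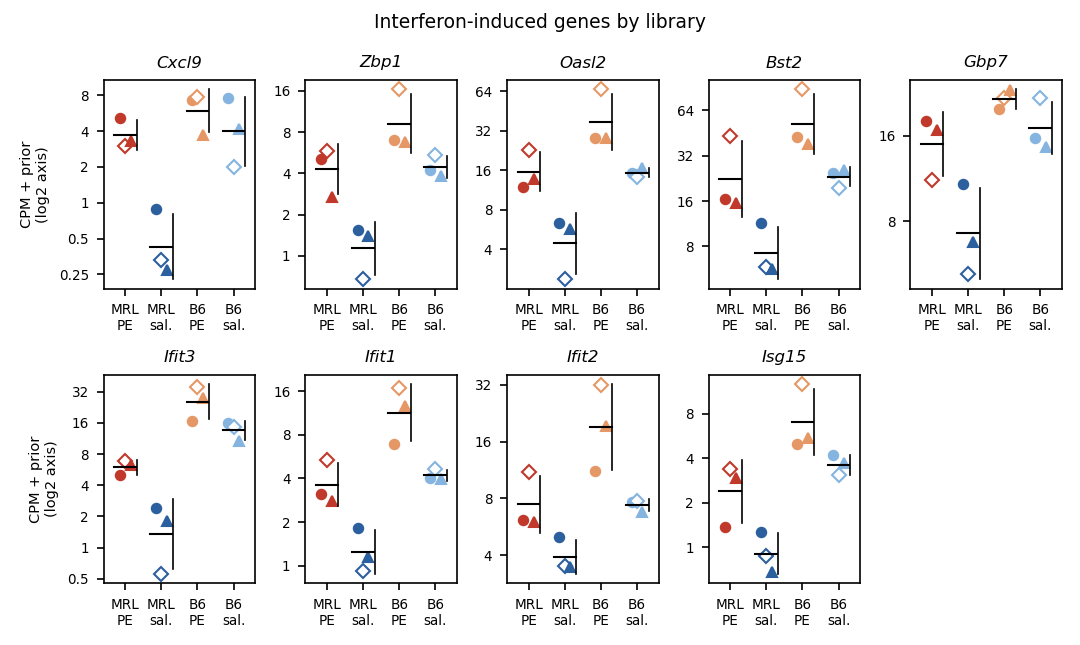
CPM plus the prior, on a log2 axis, of 9 interferon-induced genes in the PE-treated and saline-treated libraries of MRL and B6 mice. Circles, open diamonds and triangles are replicates 1, 2 and 3, black lines are means of log2 CPM and vertical bars 1 SD of log2 CPM on either side. In MRL mice every PE-treated library of Cxcl9, from 2.93 to 5.10 CPM, sat above every saline-treated one, whereas the B6 groups overlapped.

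The list of cholesterol synthesis, uptake and export also had its 3 PE-treated sums above all saline-treated ones. Of the 25 list members in the matrix, 18 were higher and 0 lower at an unadjusted p under 0.05, and 15 did not overlap. The median fold change was 0.92, 0.84 without PE replicate 2, 1.18 with equal totals and 0.84 after quantile normalization, and all 25 fold changes were positive. The summed CPM was 1936, 2963 and 1364 with PE and 1187, 466 and 604 with saline. This sum is dominated by Apoe, an apolipoprotein that carries lipid out of macrophages, at 933, 1748 and 597 CPM with PE and 753, 141 and 221 CPM with saline (fold change 1.79, SE 0.58, adjusted p = 0.118), where the lowest PE-treated library was below saline replicate 1.

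Cyp51, lanosterol demethylase (chromosome 5, 4123416 to 4154751, GRCm39), stood at 34.4, 34.8 and 25.9 CPM with PE and 12.4, 9.96 and 11.4 CPM with saline. The fold change was 1.48 (SE 0.30, adjusted p = 0.085), 1.41 without PE replicate 2, and 26.7% of the transcript sequence is shared with other genes. The replicates of each group lay close together and far from the other group. Msmo1, the methylsterol monooxygenase of the next steps, stood at 21.1, 41.2 and 15.1 CPM against 8.02, 5.82 and 5.54 CPM (fold change 1.88, SE 0.39, adjusted p = 0.085). Sqle, squalene epoxidase, stood at 21.3, 23.1 and 14.1 CPM against 5.87, 4.58 and 8.11 CPM (fold change 1.65, SE 0.38, adjusted p = 0.090). Neither gene overlapped between groups.

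Hmgcs1 is an early synthase of the pathway, and its upstream sequence holds a match to letters of the sterol element. It stood at 99.5, 61.7 and 67.1 CPM with PE and 41, 30.6 and 37 CPM with saline (fold change 1.05, SE 0.34, adjusted p = 0.118), without overlap. Dhcr7, the last reductase of the pathway, stood at 22.5, 23.6 and 16.1 CPM against 11.5, 11.9 and 12.1 CPM (fold change 0.79, SE 0.24, adjusted p = 0.114), again without overlap.

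Of the sterol exporters, which the oxysterol receptor LXR switches on, Abca1 stood at 113, 188 and 84.3 CPM with PE and 60.7, 25.6 and 37.2 CPM with saline (fold change 1.65, SE 0.42, adjusted p = 0.097). Abcg1 stood at 17.9, 159.8 and 10.6 CPM against 7.63, 5.88 and 5.70 CPM (fold change 2.28, SE 0.69, 1.11 without PE replicate 2). The groups did not overlap at either exporter, and PE replicate 2 was far above the others only at Abcg1 of the pair. Plin2, which coats lipid droplets in many cell types, stood at 179, 567 and 171 CPM against 63.5, 56.1 and 56.1 CPM (fold change 2.14, SE 0.47, adjusted p = 0.085, 1.58 without PE replicate 2).

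**Figure D3:**
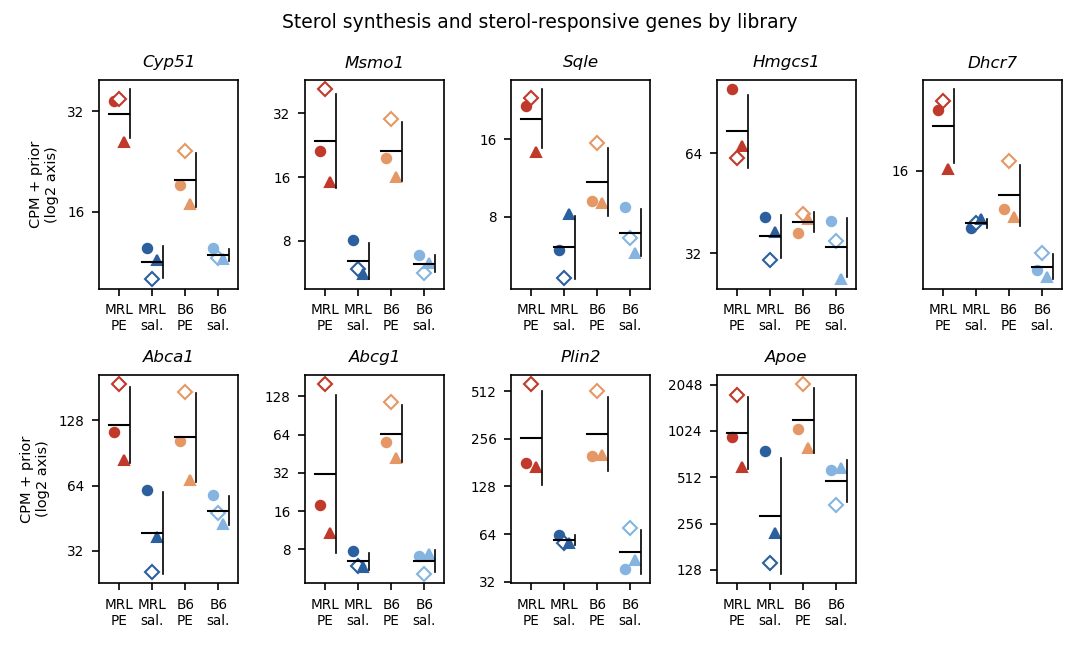
CPM plus the prior, on a log2 axis, of 9 genes of sterol synthesis, sterol export and lipid storage in MRL and B6 mice. Circles, open diamonds and triangles are replicates 1, 2 and 3, black lines are means of log2 CPM and vertical bars 1 SD of log2 CPM on either side. The MRL groups were separate at Cyp51, Msmo1, Sqle, Hmgcs1, Dhcr7, Abca1, Abcg1 and Plin2 and overlapped at Apoe.

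Adipocyte genes were high in PE replicates 1 and 3 and not in PE replicate 2. The summed CPM of the 34 list members was 23044, 5439 and 16244 with PE and 7965, 6471 and 6839 with saline, so PE replicate 2 lay below all 3 saline-treated libraries. Of the members, 5 were higher and 0 lower at an unadjusted p under 0.05, with a median fold change of 1.67. Without PE replicate 2, 28 were higher and the median was 2.72. The uninjured MRL libraries also differed among themselves, with sums of 5696, 13438 and 7047 CPM.

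Adipoq, which encodes adiponectin, a hormone that fat cells secrete, stood at 638, 44.9 and 358 CPM with PE and 171, 32.2 and 52.6 CPM with saline, a fold change of 1.72 (SE 1.16, adjusted p = 0.361) and of 2.85 without PE replicate 2. Plin1, the droplet coat of adipocytes, stood at 221, 9.07 and 132 CPM against 38.3, 10.6 and 9.50 CPM, and Cidec, which enlarges their droplets, at 581, 29.9 and 334 CPM against 108, 29.9 and 31.2 CPM. At all 3 genes PE replicates 1 and 3 were above every saline-treated library and PE replicate 2 was within or below their range. Fabp4, a fatty acid carrier, and Lipe, the hormone-sensitive lipase, were also above saline in PE replicates 1 and 3 and below it in PE replicate 2, at 2197, 234 and 1555 CPM against 529, 297 and 252 CPM for Fabp4.

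Pparg, Cebpa and Bscl2 were less far apart between the PE-treated libraries. Pparg, the receptor that directs adipogenesis, stood at 42, 17.2 and 36.3 CPM with PE and 15.2, 4.65 and 5.58 CPM with saline (fold change 2.00, SE 0.74, adjusted p = 0.140, 2.40 without PE replicate 2). Cebpa, its partner, stood at 417, 140 and 290.3 CPM against 116, 34.8 and 34.9 CPM (fold change 2.30, SE 0.88, adjusted p = 0.148). Bscl2, or seipin, which shapes new lipid droplets, stood at 123, 40.3 and 87.9 CPM against 38.8, 18 and 21.3 CPM (fold change 1.62, SE 0.53, adjusted p = 0.118). At these 3 genes every PE-treated library, replicate 2 included, was above every saline-treated one. Cd36, a fatty acid and lipoprotein receptor that macrophages share with fat cells, stood at 966, 1417 and 592 CPM against 256, 471 and 302 CPM (fold change 1.49, SE 0.57), and Lpl, lipoprotein lipase, overlapped, at 1279.7 to 2574 CPM against 593 to 1763 CPM.

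Fatty acid synthesis had the same order of libraries as the adipocyte list. The summed CPM of the 18 members was 26417, 2186 and 21752 with PE, 6103, 3057 and 3092 with saline and 2458, 14925 and 4020 in uninjured MRL muscle. Of the members, 6 were higher at an unadjusted p under 0.05, with a median of 1.68, and 16 without PE replicate 2, with a median of 2.11. Fasn, fatty acid synthase, stood at 1255, 89.3 and 1074 CPM against 199, 91.4 and 98.5 CPM (fold change 2.02, SE 1.26, 3.26 without PE replicate 2). Elovl6, which lengthens palmitate, stood at 404, 22.2 and 240.2 CPM against 20.3, 18.2 and 17.4 CPM (fold change 2.79, SE 1.32, 4.06 without PE replicate 2). Acly, which makes acetyl-CoA from citrate (2.44, SE 1.08), Slc25a1, the mitochondrial citrate carrier (2.40, SE 1.00), Acaca (1.99, SE 1.09) and Agpat2 (2.18, SE 1.07) went with Fasn in being high in PE replicates 1 and 3.

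Elovl5, Fads1 and Scd2 of this list were above every saline-treated library in all 3 PE-treated ones. Elovl5, an elongase of polyunsaturated chains, stood at 78.9, 64.5 and 76 CPM with PE and 32, 27.4 and 18.4 CPM with saline (fold change 1.52, SE 0.39, adjusted p = 0.099). Fads1, the delta-5 desaturase, stood at 83.9, 162 and 59.4 CPM against 43.5, 16.8 and 20 CPM (fold change 1.93, SE 0.47, adjusted p = 0.097), and Scd2, a stearoyl desaturase, at 528, 146 and 370 CPM against 107, 50.7 and 85.9 CPM (fold change 1.98, SE 0.61, adjusted p = 0.118). None of the 3 overlapped between groups. Markers of brown fat overlapped, with Ucp1, the uncoupling protein, at 22.4, 2.14 and 109 CPM against 1.19, 17.8 and 0.672 CPM and Cidea at 97.0, 4.16 and 154 CPM against 3.51, 15.3 and 5.03 CPM. Since adipocyte markers moved with the lipogenic genes library by library, in the uninjured group as well, the part that fat tissue in the sample had in the lipogenic values was not tested.

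**Figure D4:**
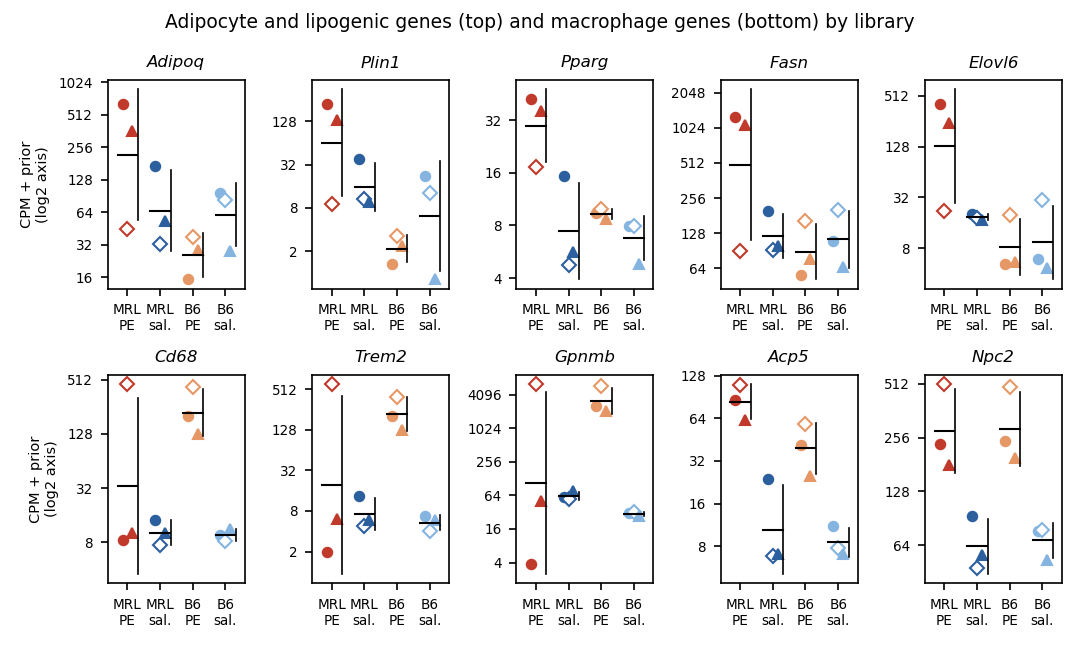
CPM plus the prior, on a log2 axis, of 5 adipocyte and lipogenic genes (top) and 5 macrophage genes (bottom) in MRL and B6 mice. Circles, open diamonds and triangles are replicates 1, 2 and 3, black lines are means of log2 CPM and vertical bars 1 SD of log2 CPM on either side. PE replicate 2 of MRL mice was the lowest PE-treated library in the 5 upper panels and the highest in the 5 lower ones, and at Cd68, Trem2 and Gpnmb it alone stood at the level of the B6 PE-treated libraries.

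Macrophage markers were high in PE replicate 2 and near the saline level in PE replicates 1 and 3. The summed CPM of the 25 markers was 400.0, 6859 and 434 with PE and 717, 253 and 353 with saline. Of the markers, 9 were higher and 0 lower at an unadjusted p under 0.05 with a median fold change of 1.41, and without PE replicate 2 these were 2, 0 and 0.41. Cd68, a lysosomal glycoprotein of macrophages, stood at 8.30, 458 and 10.1 CPM with PE and 14.1, 7.38 and 9.93 CPM with saline (fold change 1.73, SE 0.95, -0.14 without PE replicate 2). Emr1, which encodes the F4/80 antigen, stood at 9.49, 92.7 and 7.87 CPM against 16.1, 3.96 and 5.71 CPM, and Csf1r, the receptor on which macrophages depend, at 37.5, 220.0 and 34 CPM against 51.3, 14.3 and 26.6 CPM. The groups overlapped at all 3, and PE replicate 2 alone was above the saline range.

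Some macrophage genes were not confined to PE replicate 2. Mertk, a receptor for dying cells, stood at 10.3, 68.8 and 8.94 CPM with PE and 8.09, 5.04 and 5.35 CPM with saline (fold change 1.61, SE 0.57, 0.66 without PE replicate 2), and the groups did not overlap. The resident macrophage genes Cd163 (34.1, 19.5 and 23.1 CPM against 21.5, 12.9 and 18.4 CPM) and Mgl2 (22.5, 9.87 and 17.5 CPM against 18.8, 5.52 and 8.14 CPM) were lowest, among the PE-treated libraries, in replicate 2. Mrc1, the mannose receptor, stood at 47.1, 121 and 37.2 CPM against 54.4, 15.3 and 23.8 CPM. These 3 overlapped, with fold changes of 0.53 (SE 0.58), 0.73 (SE 0.55) and 1.14 (SE 0.58).

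The lists of lipid-associated macrophages and of macrophage fusion were highest in PE replicate 2, with sums above saline in the other 2 PE-treated libraries as well. The lipid-associated sums were 9253, 39127 and 6578 CPM with PE and 4296, 4418 and 3831 CPM with saline, and the fusion sums 1686, 8944 and 1308 CPM against 1172, 1081 and 914 CPM. In PE replicates 1 and 3 the first was led by Lpl and Fabp4 and the second by Cd36, which fat cells express too, and the part of fat cells in these sums was not tested. Some other members were not above the saline range in those 2 libraries. Trem2, a lipid receptor that defines this macrophage state, stood at 1.9, 608 and 5.99 CPM with PE and 13.4, 4.75 and 5.84 CPM with saline. Gpnmb, a lysosomal glycoprotein, stood at 3.75, 6353 and 51.5 CPM against 58.9, 55.4 and 76.1 CPM, and Spp1, or osteopontin, at 0.579, 1496 and 37 CPM against 20.8, 45 and 29.9 CPM. PE replicate 1 was below the saline range at Trem2, Gpnmb and Spp1, while PE replicate 3 was below it only at Gpnmb. The fold changes of these genes without PE replicate 2 were -1.07, -2.16 and -2.62. Dcstamp, which macrophages need to fuse, was at 0, 14 and 0.117 CPM against 0.242, 0.160 and 0 CPM, where 3 counts correspond to 0.119 CPM. Atp6v0d2, a proton pump subunit of multinucleated cells, stood at 0.376, 369 and 3.06 CPM against 3.46, 3.58 and 4.62 CPM. At Dcstamp and Atp6v0d2, PE replicates 1 and 3 were thus within or below the saline range.

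Acp5, Npc2, Mmp9 and Fabp5 were higher in every PE-treated library. Acp5, tartrate-resistant acid phosphatase (chromosome 9, 22038023 to 22049355, GRCm39), stood at 85.4, 110.2 and 62.6 CPM with PE and 23.9, 6.70 and 6.96 CPM with saline (fold change 3.00, SE 0.83, adjusted p = 0.107, 2.81 without PE replicate 2). Npc2, which hands cholesterol out of lysosomes, stood at 235, 509 and 181 CPM against 93.7, 47.4 and 56.3 CPM (fold change 2.14, SE 0.49, adjusted p = 0.091, 1.71 without PE replicate 2). Mmp9, a gelatinase, stood at 11.3, 61.8 and 8.80 CPM against 2.38, 2.35 and 3.27 CPM (fold change 2.76, SE 0.71, adjusted p = 0.099, 1.89 without PE replicate 2). The groups did not overlap at any of the 3. Fabp5, a fatty acid carrier of macrophages, had a fold change of 2.16 (SE 0.55) and of 1.43 without PE replicate 2, also without overlap.

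Over the 40 lysosomal genes, 18 were higher and 0 lower at an unadjusted p under 0.05, with a median of 1.16. Leaving out PE replicate 2 left 3 higher and a median of 0.14. The cathepsins Ctsb (930, 4909 and 819.8 CPM against 636, 500.2 and 549 CPM) and Ctsd (824, 4745 and 773 CPM against 592, 568 and 585 CPM) did not overlap, and their fold changes of 1.47 (SE 0.48) and 1.31 (SE 0.45) became 0.64 and 0.46 without PE replicate 2. Of the 22 lipid-associated macrophage genes 9 were higher and 0 lower, with a median of 1.31, and without PE replicate 2 these were 6, 5 and 0.27. Of the 27 fusion genes 9 were higher and 0 lower, with a median of 1.21, and without it these were 3, 1 and 0.29.

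The inflammatory and neutrophil genes named here were below 2 CPM outside PE replicate 2. Il1b, the cytokine interleukin-1 beta, stood at 0.242, 8.39 and 0.0840 CPM with PE and 0.463, 0.327 and 0.547 CPM with saline, and Tnf at 0.189, 4.97 and 0.342 CPM against 0.594, 0.430 and 0.547 CPM. Il1rn, the antagonist of the interleukin-1 receptor, stood at 0.235, 125 and 1.64 CPM against 1.40, 1.21 and 1.36 CPM. S100a9, an abundant protein of neutrophils, stood at 0.0783, 5.51 and 0.235 CPM against 0.335, 0.520 and 0.449 CPM. Only PE replicate 2 was above the saline range at Il1b, Tnf and S100a9. Of 16 neutrophil genes 2 were higher, with a median of 0.56 that became -0.83 without PE replicate 2, and of 19 inflammatory genes 1 was higher, with a median of 0.58 that became -0.04. Of 24 Fc receptor and ITAM signalling genes 6 were higher, 2 without PE replicate 2, and the median of 1.44 became -0.05. The MHC class II list, antigen presentation to helper T cells, had 0 of 15 members past the unadjusted threshold in either direction, with sums of 163, 3437 and 185 CPM against 367, 103 and 144 CPM. Eosinophils could not be described, since 1 of 10 markers was in the matrix.

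The complement list was higher in sum in all 3 PE-treated libraries, and 4 of its 22 members were so one by one. The summed CPM of 22 genes was 2593, 4712 and 1796 with PE and 1322, 484 and 519 with saline, 9 members were higher and 0 lower at an unadjusted p under 0.05, and the median was 1.03. Leaving out PE replicate 2 gave 5 higher and 1 lower, with a median of 0.50. C3, the central component, stood at 1120.4, 291 and 775 CPM against 323, 105 and 111 CPM (fold change 2.02, SE 0.63, adjusted p = 0.118, 2.58 without PE replicate 2). It was lowest, among the PE-treated libraries, in replicate 2, which overlapped with saline. C1qa, of the recognition complex that macrophages make, was instead highest in PE replicate 2, at 40.7, 124 and 37.4 CPM against 59.2, 13.8 and 17.6 CPM. Cfb and C2, the neighbouring genes of factor B and component 2, did not overlap between groups (fold changes 1.57, SE 0.51, and 1.16, SE 0.35), but 73.1% and 38.5% of their transcript sequences are shared with other genes. C5ar1, the receptor of the fragment C5a, stood at 3.87, 19.4 and 3.87 CPM against 3.24, 1.10 and 1.53 CPM.

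Of 16 T and natural killer cell genes, 6 were higher and 0 lower, and 2 were higher without PE replicate 2. The sums were 13.8, 155 and 19.3 CPM with PE and 15.4, 11.8 and 11.3 CPM with saline, so PE replicate 2 carried most of the list. The median of 0.75 was 0.49 without that library and -0.31 over genes of a mean log2 CPM of at least 1. Il2rb, the interleukin-2 receptor beta chain of T and natural killer cells, stood at 2.20, 2.16 and 1.66 CPM with PE and 0.819, 0.425 and 0.398 CPM with saline (fold change 1.79, SE 0.48, adjusted p = 0.104), and the groups did not overlap. Cd4 overlapped, at 2.29, 2.66 and 2.90 CPM against 2.37, 1.00 and 0.844 CPM. Of 10 mast cell genes 1 was higher at an unadjusted p under 0.05, and 0 without PE replicate 2, while 5 did not overlap between groups. Cma1, mast cell chymase, stood at 8.95, 7.07 and 7.07 CPM against 3.38, 3.49 and 3.30 CPM, with a fold change of 1.16 (SE 1.10, from the spread pooled over all groups), and Mcpt4 at 11.2, 8.24 and 8.55 CPM against 5.74, 5.22 and 4.64 CPM (0.83, SE 0.48). Neither protease passed that threshold. The sums of the list were 62.3, 52.7 and 54.7 CPM against 40.7, 39.3 and 34.1 CPM.

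Fibrillar collagens, the body of a scar or capsule, were high in PE replicate 2 and in saline replicate 1. Col1a1 stood at 547, 4384 and 349 CPM with PE and 1391, 243 and 265 CPM with saline (fold change 1.07, SE 0.73, -0.03 without PE replicate 2), and Col3a1 at 1058, 7149 and 785 CPM against 2118, 494 and 583 CPM (fold change 1.09, SE 0.65, 0.10 without PE replicate 2). Of 34 collagen genes 3 were higher and 1 lower, with a median of 0.39 that became -0.08 without PE replicate 2, and with 0 higher and 3 lower there. Of 42 fibrosis genes 7 were higher and 1 lower, with a median of 0.46, and without PE replicate 2 these were 3, 4 and -0.22. Col22a1, a collagen of the muscle-tendon junction, was the lower collagen gene with all libraries, at 2.54, 7.73 and 20.9 CPM against 48.1, 29.6 and 15.6 CPM (fold change -1.9, SE 0.70). Fmod, a proteoglycan of tendon, was the lower fibrosis gene with all libraries, at 8.19, 47.8 and 39.5 CPM against 445, 49.2 and 62.1 CPM (fold change -2.15, SE 0.98), and its size rests on saline replicate 1, without which it was -1.14.

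Of 30 genes of matrix proteases and their inhibitors 9 were higher and 0 lower, with a median of 0.89, and without PE replicate 2 these were 6, 1 and 0.16. The groups did not overlap at 4 of them. Adam12, a metalloprotease of regenerating and fibrotic muscle, stood at 33.2, 46.6 and 15.7 CPM with PE and 10.6, 2.29 and 2.19 CPM with saline (fold change 2.91, SE 0.77, adjusted p = 0.103, 2.57 without PE replicate 2). Adamts2, which trims procollagen, stood at 109.7, 159 and 91.9 CPM against 85.7, 28.1 and 36 CPM (fold change 1.40, SE 0.32, adjusted p = 0.090). Neither overlapped, and Adamts2 was called without saline replicate 1 (adjusted p = 0.012). Serpinh1, the collagen chaperone, had a fold change of 1.17 (SE 0.35) without overlap, Loxl1, a crosslinking enzyme, 1.10 (SE 0.34) with overlap and Dpt, dermatopontin, 1.26 (SE 0.40) with overlap. Postn, periostin, stood at 211, 698 and 74.4 CPM against 164, 37.2 and 39.1 CPM. Mmp19 stood at 14, 639 and 12.2 CPM against 14.7, 6.30 and 8.06 CPM, and 34.2% of its transcript sequence is shared with other genes.

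Growth factor genes were split in direction. Of 35 genes of the TGF-beta pathway 4 were higher and 4 lower, and the median of -0.12 was 0.15 with equal totals. Ctgf, its matrix-bound target, stood at 3.54, 24.8 and 12.3 CPM with PE and 24.3, 16.4 and 16.5 CPM with saline. Bmp5 (fold change -1.72, SE 0.47) and Bmp4 (-0.93, SE 0.30), bone morphogenetic proteins, did not overlap between groups, and 45.8% and 27.9% of their transcript sequences are shared with other genes. Igf1, a growth factor made by macrophages and fibroblasts in injured muscle, stood at 187, 110.2 and 143 CPM against 79.8, 21.6 and 25.8 CPM (fold change 2.01, SE 0.53, adjusted p = 0.103, 2.20 without PE replicate 2), without overlap. Piezo1, a stretch-gated channel, stood at 193, 140.0 and 134 CPM against 99.1, 43 and 52.8 CPM (fold change 1.34, SE 0.33, adjusted p = 0.097), and 36.5% of its transcript sequence is shared with other genes.

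The summed muscle fibre list was below every saline-treated library in all 3 PE-treated ones, by far the most in PE replicate 2. All 40 genes of the muscle fibre had negative fold changes, of which 13 passed an unadjusted p under 0.05 and did not overlap, and the median was -1. Leaving out PE replicate 2 gave 6 lower and a median of -0.46. The summed CPM of the list was 213701, 58234 and 219072 with PE and 221437, 256329 and 299547 with saline, so PE replicates 1 and 3 lay just below saline replicate 1. Ckm, muscle creatine kinase, stood at 3978, 1028 and 4629 CPM against 4059, 4386 and 4940 CPM, and Myh4, the fastest myosin heavy chain, at 54114, 12368 and 53092 CPM against 41833, 36628 and 60429 CPM. PE replicate 2 thus had the lowest fibre and the highest macrophage sum of the 6 libraries, and the part of either in the other was not tested. For Myh4 the fold change of -0.46 (SE 0.87) was 0.24 without PE replicate 2 and 0.27 after quantile normalization.

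Myh1, Mb, Actn2, Dmd and Tcap were among the 13 fibre genes that were lower in every PE-treated library. Myh1, the myosin of type IIx fibres, stood at 5158, 1671 and 2279 CPM with PE and 7938, 15679.8 and 13138 CPM with saline (fold change -2.13, SE 0.71, adjusted p = 0.121), and 32.6% of its transcript sequence is shared with other genes, Myh2 and Myh8 among them. Mb, the oxygen carrier myoglobin, stood at 596, 397 and 566 CPM against 961, 4946 and 2948 CPM (fold change -2.24, SE 0.76), with 25.7% shared. Actn2, a Z-disc actinin, stood at 522, 207 and 293 CPM against 836, 2469.8 and 1340.1 CPM (fold change -2.15, SE 0.72). No PE-treated library reached a saline-treated one at these genes, and without PE replicate 2 the fold changes were -1.78, -2.05 and -1.84. Dmd, dystrophin, stood at 56, 22.8 and 64.4 CPM against 89.7, 100.2 and 120.4 CPM (fold change -1.24, SE 0.31, adjusted p = 0.097), and Tcap, which caps titin, had a fold change of -1.56 (SE 0.49).

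Most genes of oxidative phosphorylation were lower by small amounts, a count that rests on PE replicate 2. Of 77 nuclear-encoded members, 66 were lower and 2 higher at an unadjusted p under 0.05, but the groups did not overlap at 8 lower members, with saline replicate 1 near the PE-treated libraries in sum. When PE replicate 2 was left out, 5 of the 77 were lower and 2 higher. The sums were 17647, 7392 and 18605 CPM with PE and 16165, 30598 and 28286 CPM with saline. The median was -0.78, -0.39 without PE replicate 2 and -1.04 without saline replicate 1, when 34 members were called lower. Ndufb2, of complex I, stood at 58.1, 23.5 and 60.2 CPM against 61, 106 and 106 CPM (fold change -1.02, SE 0.31). The 13 mitochondrially encoded genes had a median of -0.98, with 6 lower, and without PE replicate 2 of -0.49, with 0 lower. The 2 isoforms of the cytochrome oxidase subunit VIa went opposite ways. Cox6a2, the muscle isoform, stood at 187, 63.9 and 179.8 CPM with PE and 217, 451 and 407 CPM with saline (fold change -1.40, SE 0.42), and Cox6a1, the isoform of other tissues, at 166, 99.2 and 215 CPM against 53.5, 36.8 and 24.6 CPM (fold change 2.06, SE 0.64, adjusted p = 0.118). Neither overlapped between groups.

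Genes of calcium handling and of the neuromuscular junction passed as lower with PE replicate 2 and not without it. Of 22 calcium genes 12 were lower and 0 higher, with a median of -0.85 and of -0.32 without PE replicate 2, where 0 passed the unadjusted threshold. Stim1, a calcium sensor, stood at 99.8, 50.6 and 82.2 CPM with PE and 101, 172 and 141 CPM with saline (fold change -0.85, SE 0.28), and Hrc, of the sarcoplasmic reticulum, at 749, 245 and 979 CPM against 1083, 1254 and 1440.2 CPM. Of 20 junction genes 5 were lower, with a median of -0.85, and without PE replicate 2 0 were lower and the median was -0.54. They included Rapsn, which clusters acetylcholine receptors, at 16.1, 6.46 and 20.7 CPM against 26.4, 30.6 and 27.8 CPM, and Ache, acetylcholinesterase, at 23.4, 9.17 and 25.5 CPM against 41.8, 34.6 and 55.7 CPM. Stim1, Hrc, Rapsn and Ache did not overlap. Of 26 glycolysis genes 6 were lower, with a median of -0.74, and without PE replicate 2 0 were lower and the median was -0.21.

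Of 28 myogenic genes 5 were lower (17.9%) and 2 higher at an unadjusted p under 0.05, with a median of -1.04. When PE replicate 2 was left out, 1 was lower and 2 were higher, with a median of -0.80, and without saline replicate 1 the median was -0.53. Myf5, a factor of activated satellite cells, stood at 1.12, 0.460 and 1.67 CPM with PE and 3.64, 2.40 and 2.35 CPM with saline (fold change -1.44, SE 0.48, adjusted p = 0.119), without overlap. Myod1 stood at 11.1, 8.28 and 30 CPM against 50.9, 25 and 25.5 CPM and Myog, which acts later, at 4.80, 7.37 and 25.8 CPM against 47.7, 20.8 and 17 CPM, and PE replicate 3 reached the saline range at both. Among genes of muscle wasting, the ubiquitin ligases Trim63 (169.7, 54.4 and 170.0 CPM against 265, 263 and 275 CPM, fold change -1.20, SE 0.36) and Fbxo32 (-1.05, SE 0.39) were also lower in every PE-treated library. In the 21 atrophy genes 2 were higher and 4 lower, and the median of -0.07 was 0.19 with equal totals.

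Of 19 clock genes 5 were lower and 2 higher, and 2 lower and 1 higher without PE replicate 2. Nr1d2, or REV-ERB beta, a repressor of the clock, stood at 68.2, 39.9 and 81.0 CPM with PE and 101, 145 and 135 CPM with saline (fold change -1.05, SE 0.24, adjusted p = 0.090), and Per1 at 39.2, 22.5 and 33.1 CPM against 72, 86.5 and 87.1 CPM (fold change -1.40, SE 0.39, adjusted p = 0.107). Neither overlapped. Nr4a1, an orphan receptor that exercise and stress induce, stood at 53.2, 29.5 and 91.6 CPM against 94.6, 245 and 244 CPM (fold change -1.76, SE 0.50), and of 21 stress genes 4 were lower and 1 higher, and 8 and 0 without PE replicate 2. The hour of collection is not given in the sources used here.

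Of the other lists, higher and lower counts at an unadjusted p under 0.05 were 8 and 2 of 40 chemokine genes, 6 and 0 of 21 interleukin-1 pathway genes, 4 and 0 of 16 scavenger receptor genes, 3 and 0 of 21 genes of alternative activation, 1 and 0 of 11 B cell genes, 1 and 0 of 29 proliferation genes, 4 and 0 of 16 Schwann cell genes, 1 and 2 of 22 endothelial genes, 1 and 4 of 15 smooth muscle genes, 2 and 3 of 18 mechanosensing genes, 2 and 1 of 22 hypoxia genes, 0 and 3 of 12 brown fat genes and 0 and 1 of 11 bone genes. The shares of the interleukin-1 (28.6%), scavenger receptor (25%) and Schwann cell (25%) genes that were higher, and of the smooth muscle (26.7%) and brown fat (25%) genes that were lower, were above the background of 12.8% and 10.5%. With PE replicate 2 left out the higher counts of the first 3 were 2, 1 and 2, and the lower counts of the other pair were 0 and 1. The higher shares of chemokine (20%) and alternative activation (14.3%) genes and the lower share of mechanosensing genes (16.7%) exceeded the background by less. Without PE replicate 2 these counts were 2, 2 and 2. The brown fat list had 7 positive and 5 negative fold changes and a median of 0.63. Of its members, 5 were higher without PE replicate 2, where 9.27% of all genes were. The smooth muscle median was 0.03. Of the 11 bone genes, with a median of -0.87, 5 were lower without PE replicate 2, where 4.43% of all genes were. Their median there was -1.51. Of 15 blood and heme genes and 10 epithelial genes, 0 passed in either direction, and both sums differed several-fold between libraries of the same group, the epithelial one from 5.26 to 171 CPM among the PE-treated libraries. Ccl3, a chemokine that draws macrophages, was at 0.0777, 6.98 and 0 CPM with PE and 0.214, 0.160 and 0.224 CPM with saline, above the saline range in PE replicate 2 alone.

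The response to PE was then set against that of B6 mice, in which 760 genes (5.37%) were called higher and 85 (0.6%) lower with PE than with saline. The difference of the 2 responses, MRL minus B6, was tested in the same limma fit. With all libraries 0 genes were called for it, the smallest adjusted p was 0.988, and 614 genes had an unadjusted p under 0.05. Without PE replicate 2 of MRL mice, 625 genes were called, 95 (0.671%) with a larger and 530 (3.74%) with a smaller value in MRL mice. The genes with a smaller value without that library included 24 of the 40 lysosomal, 17 of the 24 Fc receptor, 14 of the 22 lipid-associated macrophage, 11 of the 27 fusion, 8 of the 25 macrophage, 7 of the 16 neutrophil and 7 of the 19 inflammatory genes. PE replicate 2 was singled out after its values were seen, and these lists had their highest sums in it. The counts above and the gene values below therefore follow in part from leaving it out, with 2 PE-treated MRL libraries remaining. Leaving out any other MRL library gave 0 genes called for the difference.

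Gpnmb stood at 2629.6, 5951 and 2061 CPM with PE in B6 mice and 30.3, 31.7 and 27.1 CPM with saline, where it rose by 6.74 (limma adjusted p = 0.023). The difference of the responses was -5.97 (SE 2.15, adjusted p = 0.988) with all libraries and -8.91 (adjusted p = 0.00016) without PE replicate 2. Cd68 rose in B6 mice by 4.52 (adjusted p = 0.020), and the difference was -4.67 (adjusted p = 0.00028) without PE replicate 2. Trem2 rose there by 5.34 (adjusted p = 0.026), and the difference was -6.41 (adjusted p = 0.0003) without it. In these 3 genes PE replicate 2 of MRL mice was above the highest B6 PE-treated library, and MRL replicates 1 and 3 were below the lowest. Acp5, Npc2 and Mmp9, higher in every PE-treated MRL library, had differences of 0.80, 0.07 and -1.61, which were 0.60, -0.37 and -2.48 without PE replicate 2 and were not called in either fit.

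The interferon-induced and sterol lists had medians of 0.95 and 0.58 in B6 mice, where 4 of 35 and 4 of 25 members were called, against 1.39 and 0.92 in MRL mice. The summed interferon-induced CPM was 673, 1185 and 656 with PE and 546, 396 and 497 with saline in B6 mice, so each B6 library was above every MRL library of the same treatment, a difference between strains that was not tested. Cxcl9 had a fold change of 0.58 in B6 mice, with a difference of 2.53 that was not called. Without PE replicate 2, 0 interferon-induced members and 1 sterol member were called for the difference. The latter was Soat1, which esterifies cholesterol for storage, at 6.32, 279 and 5.54 CPM with PE and 11.2, 9.50 and 5.36 CPM with saline in MRL mice, and it was picked after its value was seen. Per1, with a fold change of 0.23 in B6 mice, and Hdac9, with 0.20, had differences of -1.63 and -2.06, not called in either fit.

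The adipocyte and lipogenic lists had medians of the opposite sign in B6 mice, -0.92 and -0.29, with summed adipocyte CPM of 4493, 5058 and 5141 with PE and 6219.9, 6839 and 6269 with saline. Adipoq stood at 15.2, 37.8 and 28.7 CPM against 95.9, 81.9 and 27.8 CPM in B6 mice (fold change -1.24), and the difference of the responses was 2.95 with all libraries and 4.09 without PE replicate 2 (adjusted p = 0.16). Fasn had a difference of 2.37 and of 3.6 (adjusted p = 0.27). With all libraries 0 members of either list were called for the difference, and without PE replicate 2 there were 2 of the 34 adipocyte genes, Plin4 and Pnpla2, and 2 of the 18 lipogenic genes, Acss2 and Mlxipl, all 4 with a larger value in MRL mice and picked after their values were seen. Pnpla2, the first lipase of stored fat, stood at 1059, 116 and 825 CPM with PE and 301, 326 and 258 CPM with saline in MRL mice, so PE replicate 2 was the lowest of the 6 libraries. The muscle fibre and oxidative phosphorylation lists had medians of -0.85 and -0.82 in B6 mice, near those of MRL mice, and 0 members were called for a difference with or without that library.

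**Figure D5:**
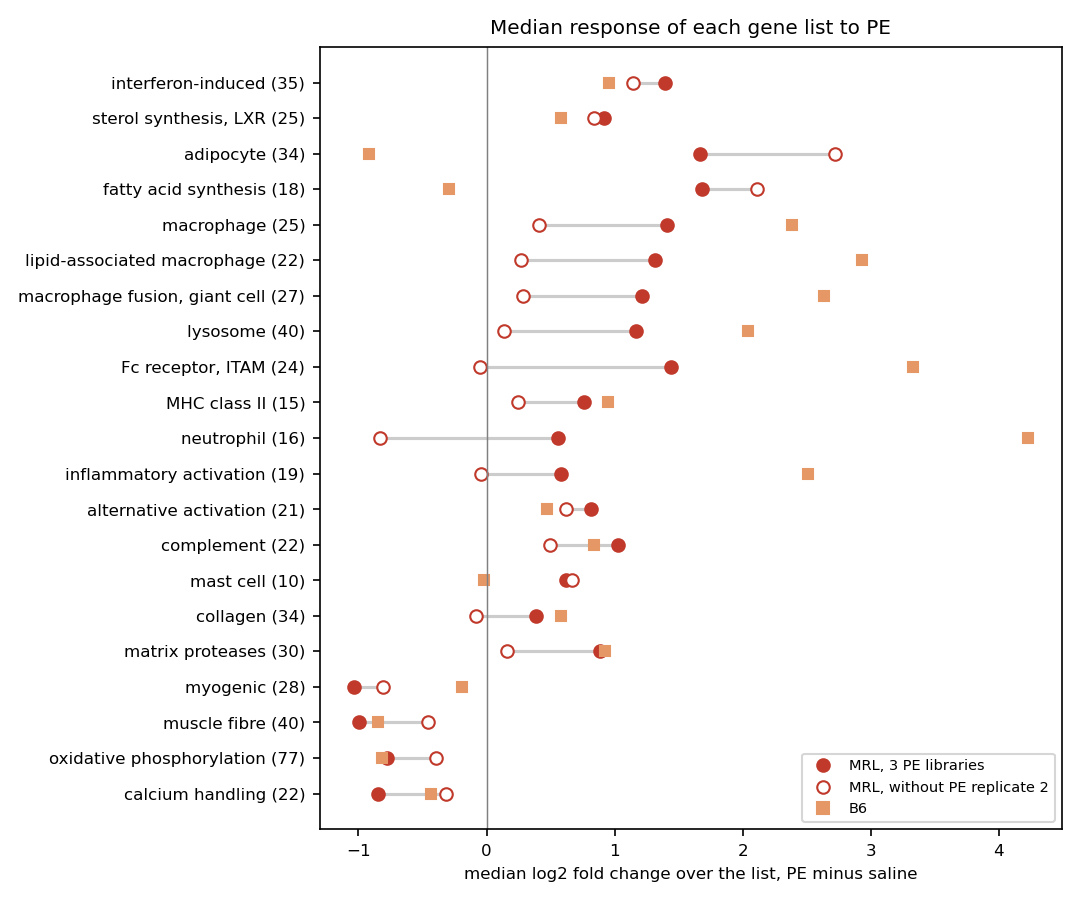
Median fold change (log2, PE minus saline) over the members of 21 gene lists, with the number of members in parentheses. Filled red circles are MRL mice with all libraries, open red circles are MRL mice without PE replicate 2 and orange squares are B6 mice. Without that library the macrophage, lysosome, Fc receptor and neutrophil medians of MRL mice moved to between -0.83 and 0.41, away from the B6 values of 2.04 to 4.23, whereas the interferon-induced and sterol medians stayed at 1.14 and 0.84.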

How the data were processed

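Bulk RNA sequencing of quadriceps muscle was used. Per the study's methods, the authors quantified paired reads from polyA-selected libraries with kallisto on the Ensembl GRCm39 cDNA, summed transcripts to genes with tximport (lengthScaledTPM), kept genes above 1 CPM in at least 3 libraries and scaled libraries by TMM in edgeR. The deposited values are log2 CPM with a prior count of 2, so a fold change of a gene of few counts is drawn toward 0. MRL reads were thus assigned to C57BL/6 transcripts. Of 14160 rows, 1 has no symbol and was dropped. The floor of the matrix, -3.65, stands for a count of 0 and equals 0.0795 CPM of prior, and from it the mean effective library size is 25149682 counts and 3 counts are 0.119 CPM. The depth of single libraries cannot be recovered, and 3 libraries per group limit the precision.

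Groups were compared with limma 3.58.1 in R 4.3.3, with 1 coefficient for each of 8 groups over 24 libraries, a variance trend, 2-sided tests and Benjamini-Hochberg adjustment over 14159 genes. Calls were made at an adjusted p under 0.05. The procedure was tested on simulated data. The 45 gene lists and the libraries compared were chosen with earlier results of these data known. Genes open to naming were up to 10 per direction with the smallest p and no overlap, without predicted genes. They also included the first 3 members of a list, up to 6 more by p, and genes that the study names. This rule gave 388 genes, and only part of them are described, without a further rule. Coordinates are those of the GENCODE annotation of GRCm39 matched by symbol. Shared sequence is the percentage of 31-base words of a gene's GRCm39 transcripts found in another gene, and it was over 25% for 19 of 151 named genes, whose values are uncertain, with Isg15, Acaca, Dcstamp, Ctgf, Ccl3, Myh4 and Plin4 among them beside those marked in the text. Alternatives were other scalings, filters, pseudocounts, sets of libraries and weights, a replicate block and leaving out each library. A few items are not reported here.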

Additional observations from a re-analysis of the deposited data

How the results depend on the processing

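The count of 0 called genes between PE-treated and saline-treated MRL mice held with a constant prior variance, equal library totals, quantile normalization, log2(CPM + 1), genes of a mean log2 CPM of at least 1, the MRL or the 6 compared libraries alone and the replicate block. It became 2818 (1694 higher, 1124 lower) with library weights, which gave PE replicate 2 a weight of 0.0939 and saline replicate 1 one of 0.413, and 12 (10 higher, 2 lower) when both were left out. Leaving out single libraries gave 0 to 775 called genes, 0 to 490 higher and 0 to 285 lower, with 121 without PE replicate 3 (84 higher, 37 lower), 775 without saline replicate 1 and 2, Kcng2 and Rab6b, without saline replicate 2. For the difference between strains the count of 0 became 1909 with weights, 483 when both were left out, 2 (Mamdc2 and Mcoln3) with log2(CPM + 1), and 0 to 625 without single libraries, 625 without PE replicate 2 and 5 pseudogenes or predicted genes without B6 saline replicate 3. These names were taken after their values were seen.

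The 1817 higher and 1481 lower genes at an unadjusted p under 0.05 became 2873 and 680 with equal totals, 913 and 538 in a fit of the 6 libraries alone, and 722 and 245 with the replicate block. The block is not a paired analysis here, since the numbers share nothing in the labels and same-numbered libraries deviated with correlations of -0.23, -0.20 and 0.13. Without single libraries the counts were 1006 to 2366 higher and 627 to 1974 lower. Lows of 1006 without saline replicate 2 and 1055 without saline replicate 3, and of 727 and 802 for the lower genes, show that the counts rest on these libraries as well as on PE replicate 2. The causes were not tested.

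Of 151 genes, 133 kept their direction under every alternative and 18 turned, 16 of them without PE replicate 2. Over leaving out single libraries their fold changes ranged from -0.066 to 1.64 for Acss2, from -1.72 to 3.11 for Atp6v0d2, from -1.31 to 1.93 for Ccl3, from -0.14 to 2.74 for Cd68, from -0.034 to 1.89 for Col1a1, from -0.55 to 3.18 for Dcstamp, from -2.16 to 3.19 for Gpnmb, from -1.17 to 1.67 for Il1b, from -0.93 to 3.39 for Il1rn, from -0.57 to 0.75 for Mlxipl, from -0.82 to 0.24 for Myh4, from -0.081 to 2.82 for Myo1f, from -0.25 to 1.37 for Plin4, from -1.19 to 1.38 for S100a9, from -0.48 to 2.34 for Soat1, from -2.62 to 2.95 for Spp1, from -0.83 to 1.28 for Tnf and from -1.07 to 3.06 for Trem2. With library weights the turned values were Trem2 -0.55, Gpnmb -1.92, Spp1 -2.44, Atp6v0d2 -1.52, Il1b -1.07, Tnf -0.68, Il1rn -0.67, S100a9 -1.14, Ccl3 -1.17, Myh4 0.10, Mlxipl 0.59 and Soat1 -0.14. With both PE replicate 2 and saline replicate 1 left out they were Trem2 -0.62, Gpnmb -2.21, Spp1 -2.90, Dcstamp -0.14, Atp6v0d2 -1.79, Il1b -1.14, Tnf -0.75, Il1rn -0.89, S100a9 -1.34, Ccl3 -1.27, Myh4 0.19, Mlxipl 0.59 and Soat1 -0.27. With equal library totals the value was Mlxipl 0.16. With quantile normalization the value was Myh4 0.27. The causes were not tested. Of 45 list medians, 15 turned under some alternative, among them the neutrophil, Fc receptor, inflammatory and collagen medians without PE replicate 2.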
